A study of Drosophila melanogaster with 3 samples.

Results

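The genes described here are neuronal RNA-binding and RNA-editing genes of the fly, measured in AKHR+ neurons, brain neurons that carry the receptor of the hunger hormone AKH. The list held 10 symbols, namely elav, fne, Rbp9, Adar, ps, mub, Fmr1, Rbfox1, Syp and Imp, which were matched to the FlyBase gene IDs of the deposited values. A line was found for 7 of the 10 among the 11922 genes measured. Rbfox1, Syp and Imp had no line under the IDs of the annotation used, which may differ from the IDs of the deposited values, and are not analysed here.

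RNA-binding proteins decide which exons a neuron keeps, where its transcripts end, where in the cell they travel and when they are translated. The ELAV family (elav, fne, Rbp9) acts on splicing and 3' end choice in fly neurons, and the KH-domain proteins encoded by ps and mub act on splicing. Fmr1 encodes the fly FMRP, a repressor of translation at synapses. Adar encodes the enzyme that turns adenosine into inosine in transcripts, many of which code for ion channels and synaptic proteins.

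Single GFP-marked cells were picked from dissected brains, and their RNA was amplified and sequenced to find which lipoprotein receptors AKHR+ neurons express. The same values are used here for the RNA-binding and editing genes. The 3 libraries formed a single group with no second condition, and are called cells 1, 2 and 3. All came from flies with UAS-mCD8gfp under nSyb-AD-AKHR-BD-GAL4, held on normal food and 5 days old, in which a split-GAL4 pair driven by the nSyb and AKHR promoters marks the cells. The labels name each library as an AKHR neuron but also speak of pooled single cells, so a library may hold more than 1 cell, and then fewer expressing cells and less RNA per cell cannot be told apart. With so few libraries, and with nothing that says whether they came from separate flies, the spread between cells may be partly technical.

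Expression was given as FPKM, the number of sequenced fragments scaled by exon length and by the mapped total. Genes can thus be compared within a cell as far as the length used for each, which is not stated, is right. The summed FPKM ran from 492248 to 539862, and the depth, estimated from the steps between low values, from 6240000 to 6620000 fragments per cell. Genes at FPKM of at least 1, called detected here, numbered 4389 in cell 1, 6046 in cell 2 and 5626 in cell 3. On the scale of log2(FPKM + 1), the median difference between cells over the 3709 genes detected in all 3 cells lay between -0.04 and 0.01. No shift in scale was thus seen for these genes, which leaves out genes missing from a cell. Over the genes above 0 in each cell, the median was 5.00 in cell 1, 4.50 in cell 2 and 4.61 in cell 3. No gene had the same value above 0 in any pair of cells (0 genes).

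General neuronal markers were used to check that the libraries held neuronal RNA, which does not tell AKHR+ neurons from other neurons. Of the 5 listed, nSyb had no line under the IDs used. The 4 with a line (Syt1, brp, Syx1A and Snap25) were found in each cell, at FPKM values between 24.6 (brp, cell 3) and 719 (Snap25, cell 3). Markers of other cells were also present. Of the 7 glial markers with a line, 5 were detected in all 3 cells. The summed FPKM of the 7 was 1945 to 2939 per cell, against 1051 to 1444 for the 4 neuronal markers. The glial sum came mostly from nrv2 (1585, 770 and 1764 in cells 1, 2 and 3) and wrapper (732, 323 and 568). Both were lowest in cell 2. The glial identity factor repo had 3.77, 51.5 and 9.63 in cells 1, 2 and 3 and was highest in cell 2. So were moody (4.54, 50.1 and 0.613), Eaat1 (21.3, 130 and 127), Gs2 (370, 615 and 469) and loco (0.155, 5.54 and 0). With unlike numbers of genes, the sums do not give the share of glial RNA. No photoreceptor marker was missing from any cell (6 of 6 detected, summed FPKM 2745 to 8050), and 4 of 6 fat body markers were found in all cells (summed FPKM 20173 to 32892), with Fbp1 and Fbp2 listed at 0. The 5 neuroblast markers (dpn, ase, wor, mira, insc) and the 3 germ line markers (vas, osk, bam) were listed at 0 in all cells. Akh, the gene of the hormone AKH, which neuroendocrine cells make, was also present. Its mean was 7.325 on the log2(FPKM + 1) scale, with the highest cell 4.717 above the lowest. The part of RNA from other neurons, neuroendocrine cells, glia, photoreceptors or fat body in the values of the RNA-binding and editing genes was not tested.

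All 7 RNA-binding and editing genes were detected in every cell, against a background of 31.1% of all genes detected in all 3 cells. At FPKM of at least 10 in all 3 cells the count was 4 of 7 (fne, Rbp9, ps and mub), against 20.6% of all genes. Their median FPKM was 78.6 in cell 1, 98.7 in cell 2 and 62.2 in cell 3. The median over all genes was 0, 1.28 and 0.135. Set against the genes detected in all 3 cells only, the median of the 7 was higher by 0.88 ± 0.40 on the log2 scale (SD, n = 3). In each cell that median is the value of Rbp9 alone. Above the median of the genes detected in all 3 cells lay 4 of the 7 in cell 1, 5 in cell 2 and 5 in cell 3. The list as a whole was thus not clearly raised among these genes. Together they took 0.126% ± 0.017 of the summed FPKM.

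**Figure D1:**
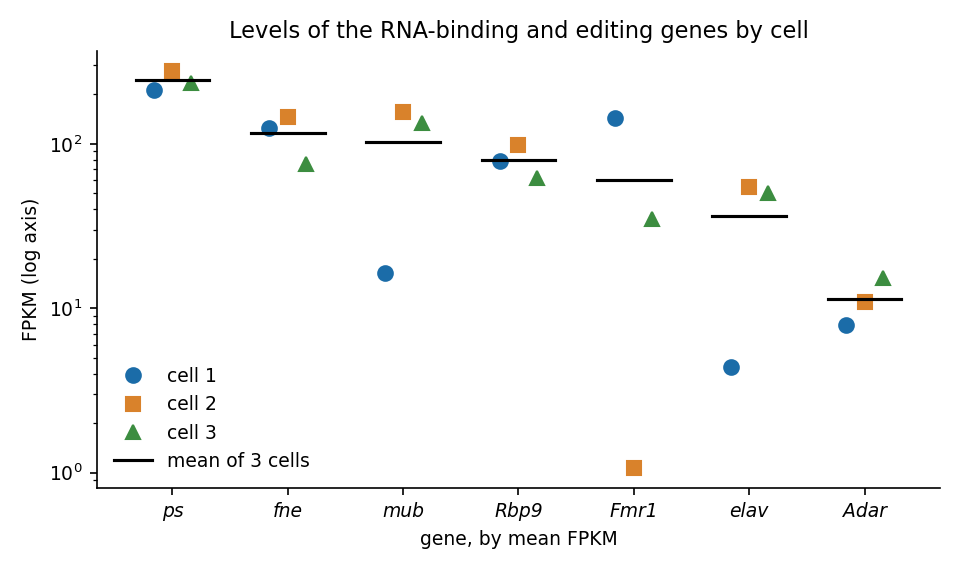
FPKM (log axis) of the 7 genes in cells 1, 2 and 3 (circles, squares and triangles), ordered by mean FPKM, with a line at the mean of the 3 cells. The values of ps lie close together between 214 and 278, whereas those of Fmr1 run from 1.07 to 143.

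The KH-domain genes included the most abundant gene of the list. The gene ps (pasilla, FBgn0261552), whose product is the fly relative of the mammalian Nova splicing factors, spans bases 9417940 to 9455500 of chromosome 3R, plus strand (BDGP6). The FPKM of ps was 214, 278 and 236 in cells 1, 2 and 3. The mean of ps was 243 ± 33.0 (SD, n = 3, as for all means below). The gene had rank 1 of the 7 genes in each cell, and its percentile among all genes was 96.3, 97.7 and 97.0. The highest cell was 1.30 times the lowest, the smallest ratio of the 7 genes.

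The gene mub (mushroom-body expressed, FBgn0262737), which encodes another KH-domain protein, spans bases 21844788 to 21932702 of chromosome 3L, plus strand. Its FPKM was 16.3, 157 and 134 in the 3 cells, with a mean of 103 ± 75.6. Cells 2 and 3 were alike and cell 1 was low, so that mub had rank 2 in cells 2 and 3 and rank 5 in cell 1. Within cells, mub minus ps was -1.75 ± 1.63 on the log2(FPKM + 1) scale, with mub lower in 3 of 3 cells (exact two-sided sign-flip permutation p = 0.25, also 0.25 after Benjamini-Hochberg adjustment over the 4 pairs tested). With 3 cells, 0.25 is the smallest p that this test can give. Without cell 1 the difference was -0.81.

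The ELAV family was next examined as a set, since its members are paralogs with like RNA-recognition motifs. The gene fne (found in neurons, FBgn0086675, chromosome X from 12917477 to 12950417, plus strand) had an FPKM of 125, 146 and 75.8 in the 3 cells, with a mean of 116 ± 36.0. Rbp9 (FBgn0010263, chromosome 2L from 2954762 to 2968434, plus strand), known from neurons and from female germ cells, had 78.6, 98.7 and 62.2, with a mean of 79.8 ± 18.3. Both genes were highest in cell 2 and lowest in cell 3, and in each cell they held ranks 3 (fne) and 4 (Rbp9) of the 7 genes.

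The gene elav itself (FBgn0260400, chromosome X from 509235 to 523226, minus strand), the standard marker of fly neurons, was the lowest of the family in each cell. It had an FPKM of 4.36 in cell 1 but of 54.6 and 50.1 in cells 2 and 3 (mean 36.4 ± 27.8). Cell 1 thus stood apart, at the 68.4 percentile of all genes, those at 0 included, against 87.3 and 85.0 in the other cells. Percentiles compare poorly between cells, since 4969 genes were above 0 in cell 1 but 6337 and 6061 in cells 2 and 3. Among genes above 0 in cell 1 the median FPKM was 31.0, well over that of elav. The value in cell 1 rested on about 129 fragments at the mean annotated transcript length (95% Poisson interval 108 to 153), or 64.9 to 303 fragments at the shortest and the longest transcript. The interval covers counting error only, and not reads from exon bases that elav shares with other genes, given below. Of the 4 neuronal markers, Syt1 was also lowest in cell 1 (FPKM 106, 285 and 174 in cells 1, 2 and 3), whereas Syx1A was highest there (675, 296 and 335). The summed FPKM of the 4 markers was 1444, 1051 and 1253.

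**Figure D2:**
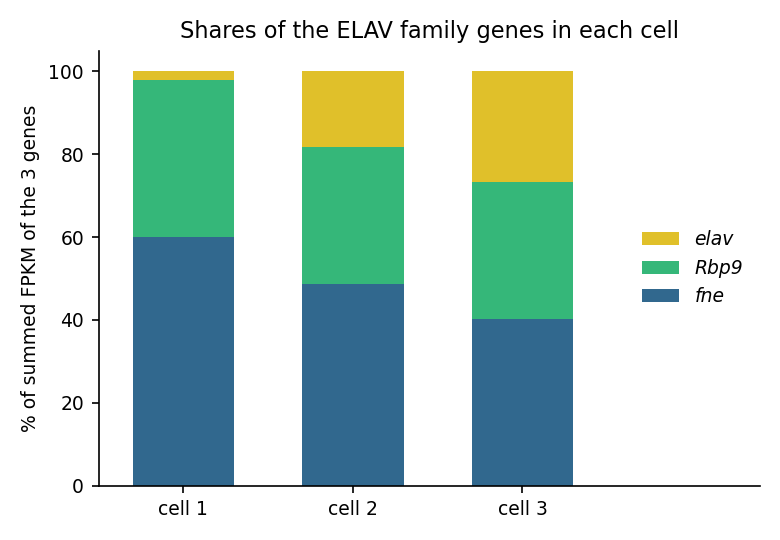
Share of fne, Rbp9 and elav in the summed FPKM of these 3 genes in each cell (stacked bars, percent). The share of Rbp9 differs little between cells (33.0% to 37.8%), while that of elav is 2.10% in cell 1, 18.3% in cell 2 and 26.7% in cell 3.

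The order fne, Rbp9, elav held in 3 of 3 cells. Of the summed FPKM of the family (208, 299 and 188 in cells 1, 2 and 3), fne took 49.7% ± 9.96, Rbp9 34.6% ± 2.74 and elav 15.7% ± 12.5 (SD, n = 3). The difference fne minus elav was 2.18 ± 2.10 on the log2(FPKM + 1) scale and Rbp9 minus elav was 1.68 ± 1.93, the second within its spread between cells. Rbp9 minus fne was small but even between cells, at -0.50 ± 0.20. Each of these 3 pairs had an exact two-sided sign-flip permutation p of 0.25 (adjusted 0.25), the smallest possible. The differences from elav leaned on cell 1 and were 0.99 for fne and 0.57 for Rbp9 without it. An error in the length used for a gene could shift its differences and shares alike in every cell, and the SDs would not show it.

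Fmr1 (FBgn0028734, chromosome 3R from 10101420 to 10110121, minus strand) had the widest spread of the 7 genes. Cell 1 had an FPKM of 143, cell 2 of 1.07 and cell 3 of 35.1 (mean 59.9 ± 74.4), so its highest cell was 134 times its lowest. Fmr1 had rank 2 of the 7 genes in cell 1, rank 7 in cell 2 and rank 6 in cell 3, the reverse of the pattern of elav and mub, which were lowest in cell 1. About 22.5 fragments lay behind the value in cell 2 (95% Poisson interval 14.1 to 33.9), against about 3199 in cell 1 (3089 to 3312) and 773.5 in cell 3 (719.95 to 830.0). The mean was 89.3 without cell 2 and 18.1 without cell 1.

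Adar (FBgn0026086, chromosome X from 1773725 to 1788065, plus strand) was the lowest gene of the list by mean FPKM. Cells 1, 2 and 3 had an FPKM of 7.86, 10.9 and 15.3 (mean 11.4 ± 3.75), or about 173, 226 and 332 fragments. It was low but even, with a highest cell 1.95 times the lowest, and 70.9%, 62.8% and 68.4% of all genes were at or below it. The median FPKM of genes above 0 was 31.0, 21.7 and 23.4, so Adar lay below the middle of the expressed genes in every cell.

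**Figure D3:**
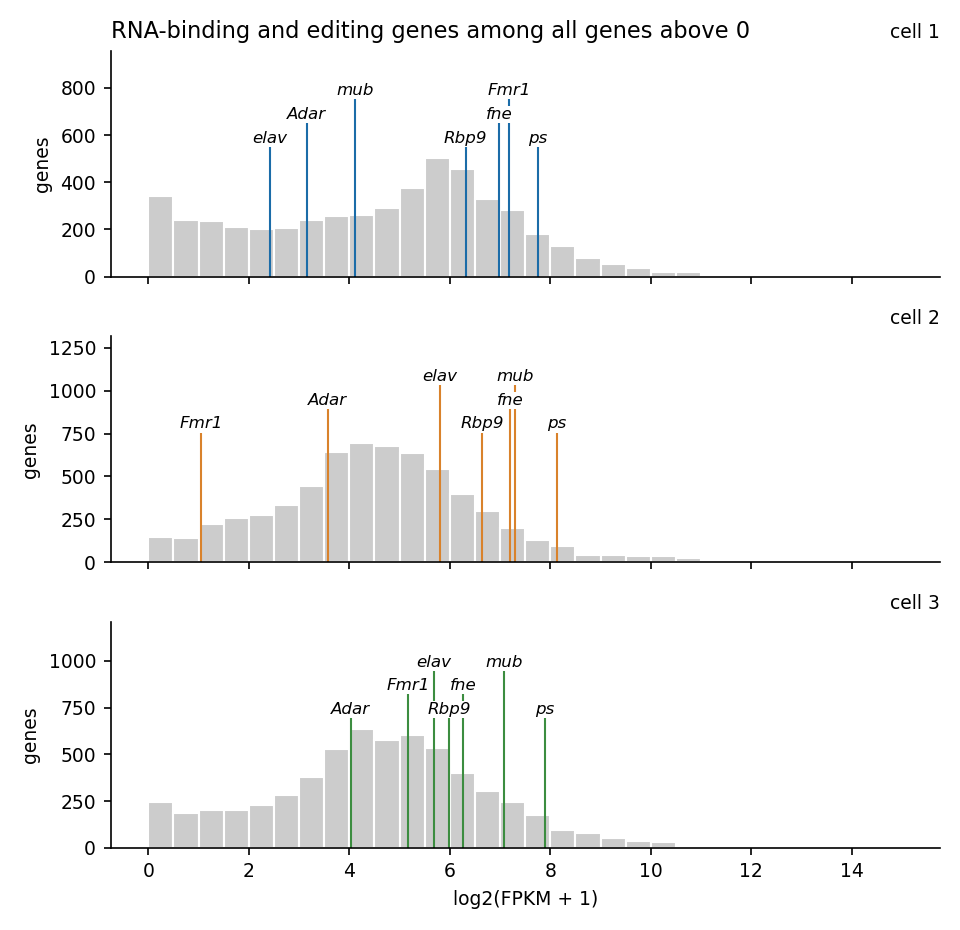
Histograms of log2(FPKM + 1) over all genes above 0 in each cell (grey bars, number of genes per bin of 0.5), with a vertical line at the value of each of the 7 genes. The line of ps is the rightmost in each cell, and the lines of elav in cell 1 and Fmr1 in cell 2 are the leftmost.

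The levels of the 7 genes were then put in order. By mean FPKM the order was ps, fne, mub, Rbp9, Fmr1, elav and Adar. Among neighbours in this order, ps minus fne was 1.11 ± 0.45 on the log2(FPKM + 1) scale, with ps higher in 3 of 3 cells. The other 5 neighbouring pairs did not differ beyond their spread. These were fne and mub (0.65 ± 1.95), mub and Rbp9 (-0.15 ± 1.79), Rbp9 and Fmr1 (1.85 ± 3.35), Fmr1 and elav (-0.17 ± 4.76), and elav and Adar (1.05 ± 1.56). Of the 21 possible pairs of the 7 genes, 13 had the same order in all 3 cells and 8 did not. Of these 8 pairs, 5 involved Fmr1.

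The genes differed in their spread between cells. The range, taken as the highest minus the lowest cell on the log2(FPKM + 1) scale, was 0.38 for ps, 0.66 for Rbp9, 0.88 for Adar and 0.94 for fne. It was 3.19 for mub, 3.38 for elav and 6.13 for Fmr1. Set beside these were the 4113 genes that reached FPKM 10 in 2 or more cells, all 7 included, whose median range was 1.94. A range under 1 was found for 4 of the 7 genes, against 22.5% of the 4113 genes. A range over 3 was found for 3 of the 7, not far from the 32.9% of the 4113 genes. Neither count was tested. No member lay between these limits, which were chosen after the values were seen. Among the 4113 genes, 3.87% had a smaller range than ps, 71.0% than elav and 96.8% than Fmr1. Both elav and mub were more than 2 log2 units lower in cell 1 than in either other cell, as were 22.9% of the 4113 genes, so 2 of 7 lay close to that background.

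**Figure D4:**
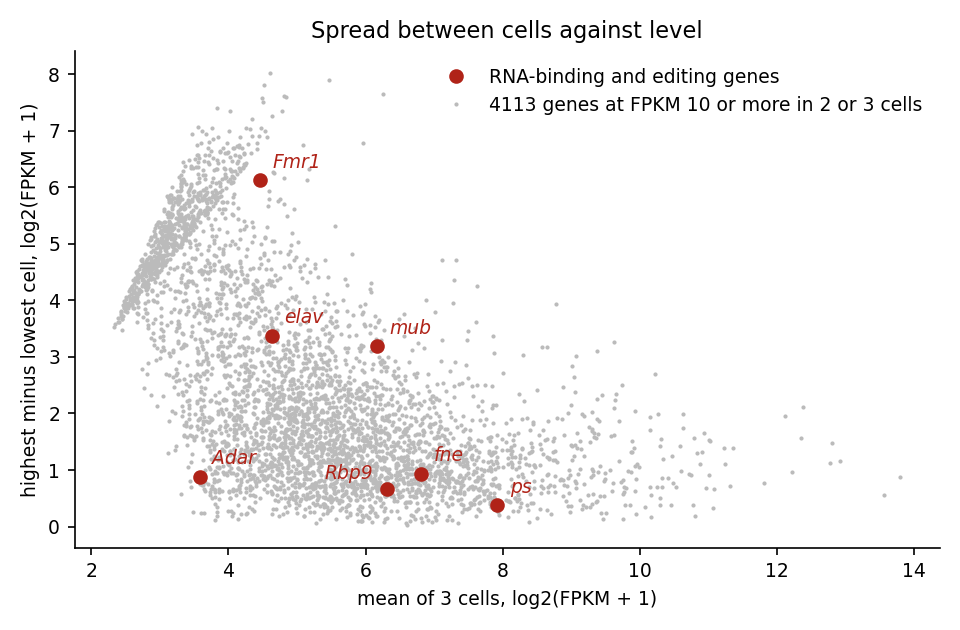
Range between the highest and the lowest cell against the mean of the 3 cells, both on the log2(FPKM + 1) scale, for 4113 genes (grey) and the 7 genes named (red). ps, Rbp9, Adar and fne lie under a range of 1, and mub, elav and Fmr1 over 3.

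Gene structure was examined because FPKM divides by a transcript length and the length that was used is not stated. The 7 genes are long and have many annotated transcripts. Each had a longer span, more transcripts and a longer longest 3' UTR than the median of the 11440 protein-coding genes with a line. The longest annotated 3' UTR had 1812 to 9514 bases in the 7 genes (median 5048), against a median of 207 over all genes. It was longest for mub (9514 bases), elav (8557) and ps (7651) and shortest for Fmr1 (1812). The longest transcript was 4.67 times the shortest for elav, 4.06 times for ps, 4.03 times for mub and 1.95 times for Fmr1. How far the length that was used moved the values of these genes was not tested. Long 3' UTRs of this kind are a known feature of transcripts in fly neurons. On chromosome X lay 3 of the 7 genes (elav, fne and Adar), against 1831 of the 11440 protein-coding genes.

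Exons of 3 of the 7 genes overlap those of other genes, and the kit, as described, does not mark strand, so reads from shared bases cannot be told apart. The exons of elav share 673 bases (6.28% of its exon bases) with arg on the other strand, which had an FPKM of 22.7, 8.72 and 7.86 in cells 1, 2 and 3 and was thus highest where elav was lowest. The exons of elav also share 2994 bases (27.9% of its exon bases) with lncRNA:enrr on the same strand, a larger overlap than that with arg. Rbp9 shares 142 bases with Ts, which was at 0.655, 9.12 and 0.679, and Adar shares 498 bases with prage. The genes lncRNA:enrr and prage are not analysed here. For ps, fne, mub and Fmr1 no exonic overlap was annotated.

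Other genes of RNA regulation were measured for comparison. Of 14 splicing and mRNA regulators with a line, 13 were detected in all 3 cells, against 31.1% of all genes. The 7 genes had a median FPKM of 78.6, 98.7 and 62.2 in cells 1, 2 and 3. That of the 14 regulators was 80.0, 62.4 and 71.2, close in cells 1 and 3 but lower in cell 2. The highest were Rbp6, a relative of musashi (mean FPKM 331 ± 185, SD, n = 3), Hrb27C, an hnRNP protein gene (306 ± 121), and shep, an RNA-binding protein gene known from neuronal remodelling (215 ± 74.1). Of 12 granule and translation factors, 10 were detected in all 3 cells, against the same 31.1%, with median FPKM 28.5, 45.6 and 33.6. The highest were me31B, which encodes a helicase of repressed mRNA granules (198 ± 113), AGO1, the Argonaute of the microRNA pathway (81.9 ± 29.3), and orb2, a CPEB protein gene known from memory (71.7 ± 30.7).

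Transcripts on which these proteins are known to act were also present. Of 11 selected transcripts known to be edited by Adar, 8 had a line. These 8 were detected in every cell, against 31.1% of all genes. The highest were cpx (mean FPKM 724 ± 149), the complexin that clamps vesicle fusion, Syt1 (188 ± 90.3), the calcium sensor of release, and GluClalpha (147 ± 67.0), a glutamate-gated chloride channel. The lowest was the potassium channel gene eag (4.50 ± 1.64). FPKM does not show whether these transcripts were edited.

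Imp and Syp had no line, but transcripts they act on were kept in the next list. Of 7 transcripts known to be bound or controlled by ELAV, FMRP, Imp or Syp, 7 were detected in all 3 cells, against 31.1% of all genes. The highest were chic, the profilin gene repressed by FMRP (207 ± 126), arm, the fly beta-catenin (134 ± 30.3), and ewg, a transcription factor gene spliced by ELAV (42.3 ± 10.1). FPKM per gene shows neither how these transcripts were spliced nor how far they were translated.

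**Figure D5:**
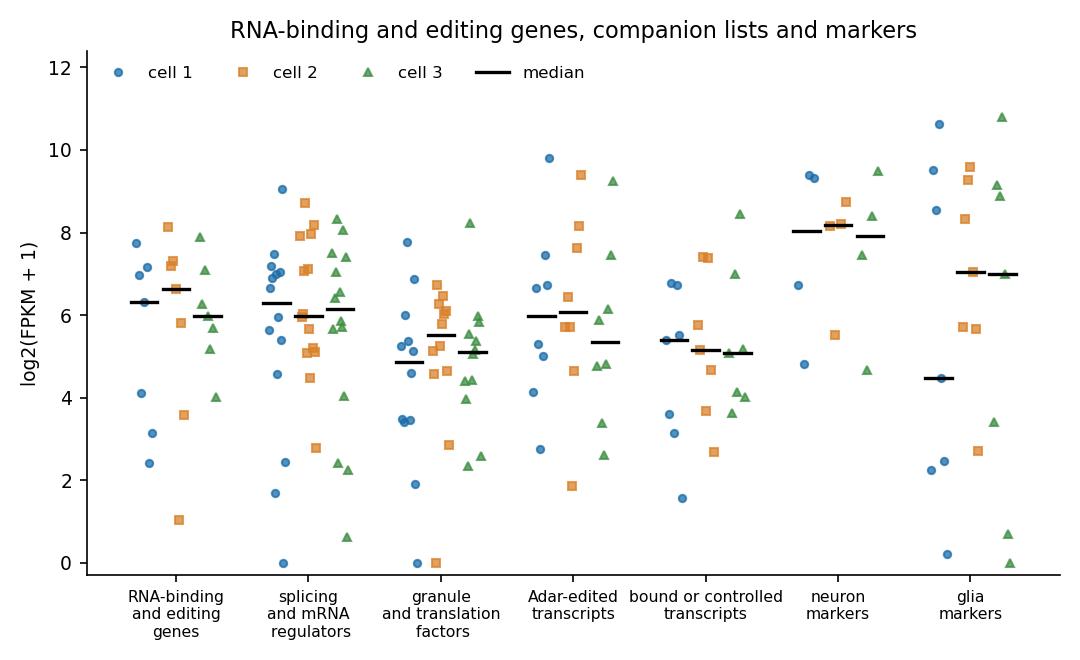
log2(FPKM + 1) of every gene with a line in 7 lists, by cell (points), with the median of each list and cell (black bars). The medians of the RNA-binding and editing genes were 6.31, 6.64 and 5.98 in cells 1, 2 and 3. Those of the splicing and mRNA regulators (6.30, 5.99 and 6.15) lie close to them in cells 1 and 3 and lower in cell 2. Those of the neuron markers (8.03, 8.19 and 7.92) lie above both.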

How the data were processed

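Values were available for 3 libraries of a single group, mapped by the replicate number in their labels. In the table of cell 3 the column header gives a sample number that differs from its label, and the deposit's record of which sample the table belongs to was followed. Other cells of the study are not analysed here. The authors trimmed reads, aligned them to the fly genome (HISAT, per the processing notes in the labels, version not given) and deposited FPKM per gene. Quantifier, build and annotation are not given in the sources used here. FPKM are not counts and no molecular identifiers are described, so PCR copies count as fragments and no count test was used.

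Each cell had 12180 lines for 11922 FlyBase IDs. The 117 IDs on more than 1 line were averaged. Each of the 7 genes stood on 1 line. Symbols and gene models were from BDGP6.54 (Ensembl release 115), with a symbol for 11794 IDs. Depth was estimated as the number of fragments that best placed low values (up to 10 fragments) of genes with 1 annotated transcript on whole numbers. At that depth 63.9%, 43.9% and 52.7% of 202, 171 and 188 values lay within 0.1 of a whole number, so depths and fragment numbers are estimates. Poisson intervals (95%) cover counting error only.

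Tests used log2(FPKM + 1), which understates differences of low genes. Differences between genes were taken within cells, with an exact sign-flip permutation test and Benjamini-Hochberg adjustment. The depth search was tested on data simulated with the same lengths that it uses, so that test does not cover a wrong length. The sign-flip test was tested against SciPy. The list, the companion lists and the tests were chosen with earlier results of these data known. Of each companion list the 3 highest genes by mean log2 value and those at 0 in all cells were named. The genes eag, repo, loco, nrv2, wrapper, moody, Eaat1, Gs2, Akh, arg and Ts, and those of the closing section, were named in addition, after their values were seen. As alternatives, the pseudocount was set to 0.1, repeated lines were summed, cells were rescaled or left out in turn, and other detection limits were used. The planned comparisons of Syp with Imp were not run. Python 3.11.15, pandas 2.3.3, NumPy 2.4.6 and SciPy 1.17.1 were used.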

Additional observations from a re-analysis of the deposited data

How the results depend on the processing

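Of 92 alternative values for 20 results, 83 were called the same and 9 moved. The same meant a kept direction and side of the threshold for pair tests. For other values it meant staying within the spread between cells, and for counts staying near the main count. Of the 92, 8 were not planned. The 24 alternatives of the pair tests kept their direction, but with 3 or 2 cells these tests cannot reach 0.05, so keeping it says nothing about the threshold. The count of genes detected in all 3 cells stayed at 7 without any replicate and was 4 at FPKM of at least 10. The median of the 7 genes minus that of all genes was 5.85, and went to 7.94 at a pseudocount of 0.1 and to 6.55 with each cell rescaled to a common sum, since the median over all genes is at or near 0. The same rescaling moved the mean FPKM of elav, fne, Rbp9, Adar, ps and mub by scale alone. Leaving out a replicate gave ranges of 0.99 to 2.98 for fne minus elav, 0.57 to 2.37 for Rbp9 minus elav, -0.61 to -0.42 for Rbp9 minus fne and -2.23 to -0.81 for mub minus ps. It gave 10.2% to 22.5% for the share of elav in its family. No paired analysis was possible because there is only 1 group of cells, so replicate numbers pair nothing between groups. Differences between genes were taken within cells. Depth is an estimate. It scales the fragment numbers and intervals and leaves the FPKM as they are.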

Other observations

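Some companion genes stood out by their values and were chosen after these were seen. The splicing factor gene mbl, the fly muscleblind, had an FPKM of 49.2 in cell 1, 242 in cell 2 and 180.4 in cell 3, and was thus lowest in cell 1 as elav and mub were. The KH-domain gene how, known from glia and muscle, had 0, 33.5 and 0.538 in the 3 cells. Listed at 0 in a single cell were also orb in cell 2 (9.66 and 4.13 in cells 1 and 3) and Dcr-1 in cell 1 (6.23 and 5.01 in cells 2 and 3). These are given as listed values.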
